A study of Mus musculus with 4 samples.

Results

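The mouse mitochondrial genome was read out through all 37 of its annotated genes, chosen as every transcript placed on chromosome MT, out of 55416 genes in the files. They comprise 13 protein genes, 2 ribosomal RNA (rRNA) genes and 22 transfer RNA (tRNA) genes, each with a single transcript. RNA came from C2C12 cells, a mouse myoblast line, transfected with K97E lamin A (2 libraries) or with wild-type (WT) lamin A (2 libraries). K97E is a lamin A mutant that the series ties to dilated cardiomyopathy, and lamin A, the product of Lmna, builds part of the meshwork under the nuclear membrane. Each culture received 3 µg of DNA with a lipid reagent and was harvested 24 h later, so both groups keep their own lamin A beside the transfected one. The sources used here do not give the species and promoter of the transfected DNA or the share of cells that took it up, and untransfected cells were not analysed here. The titles of the K97E libraries write C1C12 where their cell line field says C2C12.

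The mitochondrial genome is a small circle transcribed from both strands into long RNAs that run through many genes. tRNAs lie between most protein and rRNA genes, and cutting them out releases the other RNAs, a scheme known as tRNA punctuation. The protein genes encode core subunits of the respiratory chain and of ATP synthase, and the rRNAs and tRNAs serve the ribosomes inside mitochondria that translate them. Muscle cells depend on this chain for ATP, and all other proteins of mitochondria come from nuclear genes.

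The library protocol was an mRNA kit with paired reads of 100 bases, and every value below is in TPM, transcripts per 1000000, which is a level per length. About 115600000 and 107800000 reads lay on transcripts in the K97E libraries, against 89600000 and 106400000 in the WT libraries. These totals were estimated from coverage because the files hold no read counts, and no counting interval can be given. Lmna itself had 659.7 and 629 TPM in K97E libraries, against 558 and 596 TPM in WT libraries (log2 difference 0.10, limma adjusted p = 0.965). Of 11 myoblast markers, 9 averaged at least 1 TPM, among them Des at 401 and 384 TPM in K97E libraries and 404 and 467 TPM in WT libraries. Pax7 stayed at or under 0.00647 TPM and Myog at or under 0.0959 TPM in every library. Summed markers of other cells lay at 3.28 to 4.60 TPM in K97E and 4.01 to 5.68 TPM in WT libraries for leukocytes (1 of 6 at 1 TPM or more, 2 at 0 in all) and at 20.9 to 22.1 TPM and 22.1 to 24.9 TPM for endothelium (2 of 5, 1 at 0). For epithelium they lay at 0.192 to 0.356 TPM in K97E and 0.205 to 0.284 TPM in WT libraries (0 of 5, 1 at 0), and for fibroblasts at 274 to 279 TPM and 256 to 261 TPM (3 of 5, 1 at 0). Over the tested genes, the WT libraries correlated less with each other (Pearson r = 0.9849 on the log2 scale, across genes) than any K97E library did with a WT library (0.9866 to 0.9895). The labels name biological replicates without saying whether they came from separate cultures, so a p-value here measures only how far these samples scatter, which may be technical.

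Part of the RNA of at least 7 protein genes cannot be placed on the mitochondrial genome alone, because chromosome 1 carries a near-identical copy of that stretch. In GRCm39 the copy runs over 4663 bases at chr1:24650616-24655278 on the minus strand, and the files list it as 7 separate genes. These are Gm28439 (copy of mt-Nd4), Gm10222 (mt-Nd4l), Gm28438 (mt-Nd3), Gm28437 (mt-Co3), Gm10925 (mt-Atp6), Gm28661 (mt-Co2) and Gm29216 (mt-Co1). Aligned to the mitochondrial genes, 5 of the copies were identical at every base, 876 bases of mt-Nd4 among them. The other 2 differed at 1 base each. Gm28438 carries T3C relative to mt-Nd3, and Gm29216 carries A1066T relative to mt-Co1, counted from 1 at the mitochondrial gene's first base. Gm29216 covers only bases 1063 to 1545 of mt-Co1. The first 60 bases of mt-Nd3 (chrMT:9459-9518, plus strand) are shown beside those of its copy because they hold the 1 difference, in capitals.
mt-Nd3: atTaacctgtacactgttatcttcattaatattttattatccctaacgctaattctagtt
Gm28438: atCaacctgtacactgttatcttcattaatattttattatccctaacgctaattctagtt

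A second, more diverged copy on chromosome 2 shows what a distinguishable sequence looks like in the same files. Gm13340 aligned over all 1545 bases of mt-Co1 with 37 differences, an identity of 97.6%. A window of 100 bases, the read length, is shown for mt-Co1 (bases 1161 to 1260, chrMT:6488-6587, plus strand), its chromosome 1 copy and its chromosome 2 copy. Capitals mark the 5 bases where Gm13340 departs from mt-Co1, namely T1179C, G1180A, C1209T, A1251G and A1260G, and Gm29216 has no difference there. Sequences here and below are GENCODE M21 transcripts of build GRCm38, matched by transcript ID, and the lengths of all 37 members matched the files.
mt-Co1: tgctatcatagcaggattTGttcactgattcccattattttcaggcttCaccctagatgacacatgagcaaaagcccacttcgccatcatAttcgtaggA
Gm29216: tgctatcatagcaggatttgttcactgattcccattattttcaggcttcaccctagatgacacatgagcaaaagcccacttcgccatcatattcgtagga
Gm13340: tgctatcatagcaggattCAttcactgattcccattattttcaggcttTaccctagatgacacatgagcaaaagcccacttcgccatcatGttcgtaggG

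The near-identical copy carried far more signal than the diverged one. Gm29216 averaged 7128 TPM over the 4 libraries, and Gm13340 averaged 111 TPM. The 5 copies that span nearly a whole gene had 1.00 to 1.11 times the per-base coverage of their mitochondrial gene in every library. Gm28437 had 3051 and 2942 TPM in K97E libraries and 3498 and 2958 TPM in WT libraries, where mt-Co3 had 3046 and 2938 TPM and 3477 and 2949.7 TPM. The copies that match only a stretch of a gene had less coverage than the whole gene. The ratio was 0.626 and 0.636 in K97E libraries and 0.661 and 0.631 in WT libraries for Gm28439 over mt-Nd4. For Gm29216 over mt-Co1 it was 0.488 and 0.486 in K97E libraries and 0.508 and 0.484 in WT libraries. If the copied bases of mt-Co1 have the coverage of Gm29216, its other 1062 bases have 2.53 and 2.54 times as much in K97E libraries and 2.41 and 2.55 times as much in WT libraries. The sources used here do not say whether the authors' tools divided or repeated reads that fit both places. Beyond the chromosome 1 copies, 36 transcripts aligned to a member over at least 60 bases, all at 97.6% identity or less. The 2 of them that averaged over 10 TPM were Gm13340 and Gm13341, which lies on chromosome 2, aligned to mt-Co2 and averaged 123.5 TPM.

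**Figure D1:**
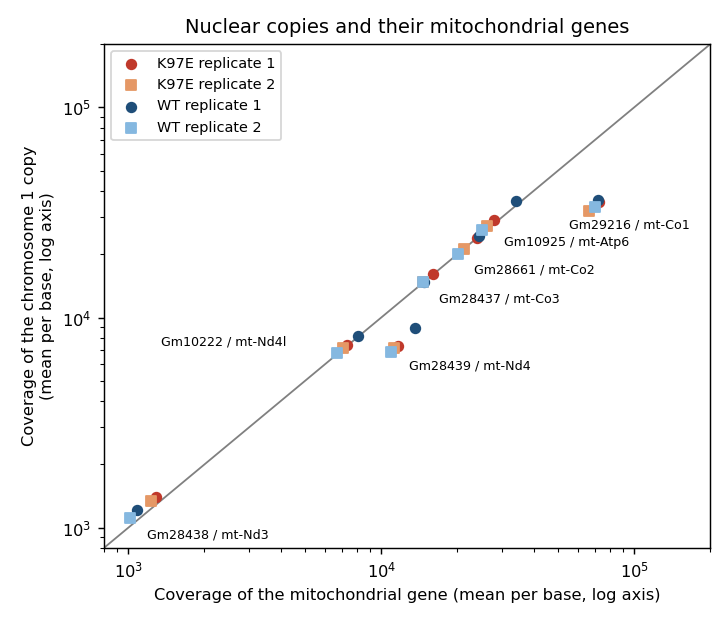
Mean coverage per base of the 7 chromosome 1 copies (vertical, log axis) against the mitochondrial gene each one copies (horizontal, log axis), 1 point per library, with the line of equal coverage. The 5 copies of nearly whole genes lie on the line in all 4 libraries, while Gm28439 and Gm29216, which match part of mt-Nd4 and mt-Co1, lie below it.

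The copies together held 2.28% and 2.22% of all TPM in K97E libraries, against 3.06% and 2.21% in WT libraries. Adding each copy to its gene per length moves the order of the protein genes. The sum is apt only if reads that fit both places were divided, since repeated reads would be counted at both. Every value with copies added rests on this. mt-Co3 then has 6211 TPM and rank 4 of 13 in place of rank 8, and mt-Nd4 has 3467 TPM and rank 7 in place of rank 10. mt-Co1 (16744 TPM), mt-Atp6 (12037 TPM) and mt-Co2 (9278 TPM) keep the first 3 ranks. No annotated gene within 10000 bases of Gm10925 was matched to mt-Nd1, mt-Nd2, mt-Atp8, mt-Nd5, mt-Nd6 or mt-Cytb. Only annotated genes were compared. The bases between the listed copies, where mt-Atp8 and several tRNA genes would lie, were not. Gm10925 holds the bases that mt-Atp8 shares with mt-Atp6, and any further copied bases of mt-Atp8 are left out of these ranks. With the copies added, log2 differences between groups changed little, for mt-Nd4 from −0.306 to −0.316. The difference in protein share went from −0.871 to −1.177 percentage points. Each copy moved with its gene, but reads that fit both places can make this so, and it is not separate evidence. The log2 difference was −0.34 for both Gm10925 and mt-Atp6, and −0.16 for both Gm28437 and mt-Co3. All values that follow are those of the mitochondrial genes as deposited.

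None of the 37 members passed the test between K97E and WT libraries. Each passed the filter of a mean of 0.5 TPM, and 0 of 37 were called by limma at an adjusted p of 0.05 (percent called over all 16304 genes tested, 0.00613, which is 1 gene, Mfsd4a, higher in K97E and no member). At an unadjusted p under 0.05 there was 1 member, mt-Tl2, beside 186 higher (1.14%) and 414 lower (2.54%) genes over the whole table. Weighting by estimated reads (voom) and fitting FPKM in place of TPM also called 0 members. The fitted difference was negative, that is lower in K97E, for 30 members and positive for 7, with a median of −0.22 on the log2 scale. Over all genes 50.5% were negative and the median was 0.00. Members are cut from shared long RNAs, so their signs are not separate observations. Without WT replicate 1, 22 of the 37 were negative and their median was −0.01. The K97E and WT libraries did not overlap for 10 members (27.0%; background 33.1%), of which 8 were lower in K97E (background 16.8%), counted on the scaled values of the fit. The 8 are mt-Rnr1, mt-Co1, mt-Co3, mt-Nd5, mt-Nd6, mt-Td, mt-Ts1 and mt-Te, and the other 2, higher in K97E, are mt-Tl2 and mt-Tr. Of these, mt-Td and mt-Tr had no more than 19 estimated reads in any library. Fewer cells of a kind, fewer mitochondria or less RNA per genome cannot be told apart in bulk RNA.

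The protein genes were the most abundant class, and WT replicate 1 was the highest library for 13 of 13. mt-Co1, the catalytic core of cytochrome c oxidase (complex IV), had 13711 and 13230.4 TPM in K97E libraries, against 16915 and 14040.5 TPM in WT libraries. mt-Co2, the subunit that takes electrons from cytochrome c, had 4522 and 4247 TPM in K97E libraries, against 5749 and 4054 TPM in WT libraries. Both K97E libraries lay below WT replicate 1 for these genes, and for mt-Co2 both lay above WT replicate 2. mt-Co3, the other complex IV subunit encoded here, had the tightest spread of the 13, with 3046 and 2938 TPM in K97E libraries and 3477 and 2949.7 TPM in WT libraries. Summed over complex IV the level was 20847 ± 611 TPM in K97E and 23592 ± 3604 TPM in WT libraries (SD, n = 2 each), or 42.6% of the TPM of the 13 genes.

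The ATP synthase subunits stood further apart between the WT libraries. mt-Atp6, which forms part of the proton channel, had 5277 and 5239 TPM in K97E libraries, against 8069 and 5049.6 TPM in WT libraries. mt-Atp8, a small subunit of the same membrane part, had 4006 and 4052 TPM in K97E libraries, against 6417 and 3868 TPM in WT libraries. The K97E replicates lay close together in both genes, and WT replicate 1 stood 1.60 and 1.66 times above WT replicate 2. The 2 genes share 43 bases and are carried on a single messenger in mammals. The end of mt-Atp8 (chrMT:7910-7969, plus strand) is shown with the shared bases in capitals, which begin with the start codon of mt-Atp6.
end of mt-Atp8: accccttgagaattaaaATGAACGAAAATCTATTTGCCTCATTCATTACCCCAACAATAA

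The level of mt-Atp8 was 0.759 and 0.773 times that of mt-Atp6 in K97E libraries and 0.795 and 0.766 times in WT libraries, so the pair kept its ratio while its level moved. The same held for mt-Nd4l and mt-Nd4, which overlap by 7 bases and also share a messenger. Their ratio was 0.626 and 0.627 in K97E libraries and 0.598 and 0.617 in WT libraries. A steady ratio was not particular to genes on 1 messenger. For mt-Nd6 over mt-Nd5, on opposite strands, it was 1.234 and 1.219 in K97E libraries and 1.258 and 1.217 in WT libraries.

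Complex I, the NADH dehydrogenase that feeds electrons into the chain, has 7 members here. mt-Nd1 had 3400.5 and 3189.8 TPM in K97E libraries, against 4554 and 2832 TPM in WT libraries. mt-Nd2 had 1987 and 1996 TPM in K97E libraries, against 3114 and 1748 TPM in WT libraries, the widest ratio between WT replicates of any protein gene at 1.78. mt-Nd3 was the lowest of the 13, with 244 and 246 TPM in K97E libraries and 257 and 205 TPM in WT libraries. For these 3 genes both K97E libraries lay between the WT libraries. mt-Nd4l had 1386 and 1409 TPM in K97E libraries, against 1913 and 1353 TPM in WT libraries. mt-Nd4 had 2213 and 2249 TPM in K97E libraries, against 3199 and 2194 TPM in WT libraries. mt-Nd5 had 2523 and 2367 TPM in K97E libraries, against 3666 and 2559.9 TPM in WT libraries, and here both K97E libraries lay below both WT libraries. mt-Cytb, the only subunit of complex III encoded in mitochondria, had 3015 and 3072 TPM in K97E libraries, against 4223 and 2856 TPM in WT libraries.

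mt-Nd6, a membrane subunit of complex I, is the single protein gene on the minus strand. It had 3113 and 2886 TPM in K97E libraries, against 4613 and 3115 TPM in WT libraries. The K97E libraries lay below both WT libraries, though K97E replicate 1 and WT replicate 2 were nearly level. Its log2 difference of −0.40 ± 0.23 (SE) was the most negative of the 13, and it did not pass the test (limma adjusted p = 0.965). Relative to the sum of the other 12 protein genes its log2 ratio was −3.86 and −3.94 in K97E libraries, against −3.74 and −3.81 in WT libraries. Of the 6 log2 ratios tested within the mitochondrial genome, it was the only one for which the groups did not overlap. Over all single genes tested, 33.1% did not overlap. The difference in this ratio was −0.13, with an exact permutation p of 0.333, the smallest that 4 samples in 2 groups of 2 can give. mt-Nd6 shares 14 bases with mt-Nd5 on the opposite strand. Its level was 1.234 and 1.219 times that of mt-Nd5 in K97E libraries and 1.258 and 1.217 times in WT libraries, so for this ratio the groups overlapped. The kit was stranded, but the StringTie command recorded in the files has no strand option, so reads of mt-Nd6 and of RNA running the other way over the same bases may not have been told apart.

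**Figure D2:**
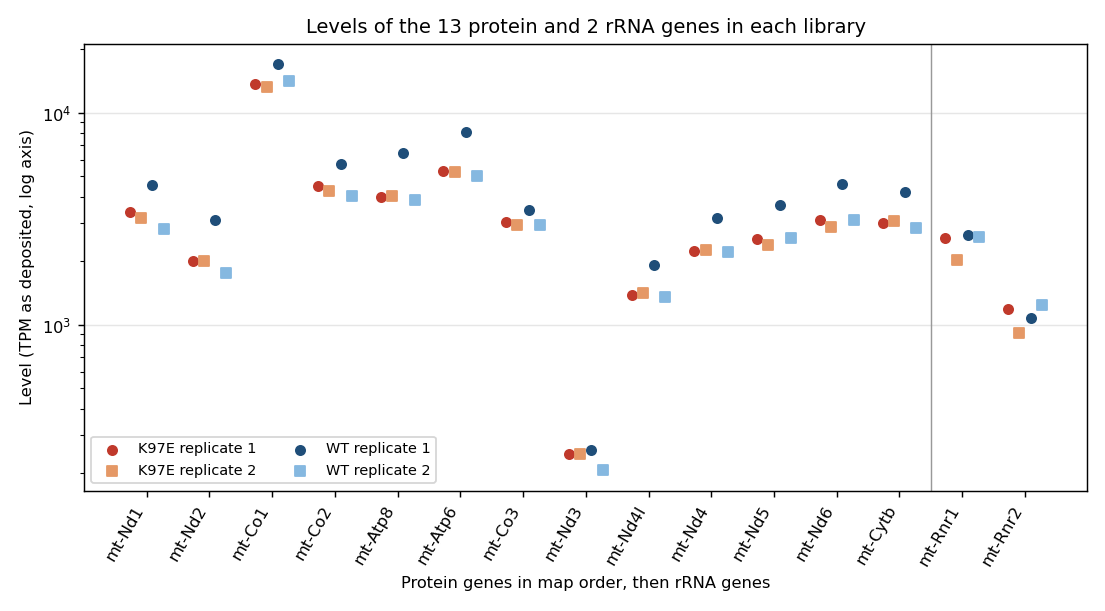
Level of the 13 protein genes in map order and of the 2 rRNA genes (TPM as deposited, log axis), 1 point per library. WT replicate 1 is the top point for all 13 protein genes, the other 3 libraries lie close together, and K97E replicate 2 is the lowest point for both rRNA genes.

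The log2 differences of the 13 ran from −0.40 for mt-Nd6 to 0.04 for mt-Nd3, with a median of −0.26 and limma adjusted p of 0.965 to 0.988. Between libraries, the median ratio of the 13 genes was 1.01 for K97E replicate 1 over K97E replicate 2. Against WT replicate 1 the median ratio was 0.714 for K97E replicate 1 and 0.703 for K97E replicate 2. Against WT replicate 2 it was 1.04 for both K97E libraries. WT replicate 1 over WT replicate 2 gave 1.46, with every gene between 1.18 and 1.78. The gap between the 2 WT libraries was therefore wider than the gap between either K97E library and WT replicate 2. WT replicate 1 also had the fewest estimated reads and the highest ratio of last-exon to first-exon coverage. The median of that log2 ratio over 12477 transcripts of at least 5 exons was 0.97 and 0.94 in K97E libraries, against 1.17 and 1.08 in WT libraries, and its part in the result was not tested. Without WT replicate 1 the median difference of the 37 members was −0.01, and without WT replicate 2 it was −0.41.

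For 11 of the 13 genes the share of the summed TPM varied less over the libraries, as a coefficient of variation, than the level did, and for mt-Nd3 (13.3% for the share, 9.5% for the level) and mt-Co3 (8.5% and 8.2%) it varied more. mt-Co1 held 28.3% and 28.1% of their TPM in K97E libraries, against 25.6% and 30.0% in WT libraries. mt-Nd4l kept the steadiest share, with 2.86% and 2.99% in K97E libraries and 2.89% in both WT libraries. mt-Nd3 varied most in share, with 0.50% and 0.52% in K97E libraries and 0.39% and 0.44% in WT libraries. In WT replicate 1 mt-Co1, mt-Co3 and mt-Nd3 held their lowest share of the 4 libraries, and mt-Nd2, mt-Atp8, mt-Atp6, mt-Nd4, mt-Nd5 and mt-Nd6 their highest.

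The rRNAs had another order of libraries. mt-Rnr1, the RNA of the small ribosomal subunit, had 2552 and 2011 TPM in K97E libraries, against 2636 and 2603 TPM in WT libraries. mt-Rnr2, the RNA of the large subunit, had 1181 and 916 TPM in K97E libraries, against 1070.2 and 1235 TPM in WT libraries. K97E replicate 2 was lowest for both, 1.27 and 1.29 times below K97E replicate 1, while WT replicate 1 did not stand out. The log2 differences were −0.27 ± 0.16 for mt-Rnr1 and −0.20 ± 0.16 for mt-Rnr2 (SE), each with a limma adjusted p of 0.965. Both RNAs are cut from the same precursor, and mt-Rnr2 was read at 0.463 and 0.455 times the level of mt-Rnr1 in K97E libraries and 0.406 and 0.474 times in WT libraries. Since mitochondrial rRNAs carry at most short tails, and the kit is described as one for mRNA, these values measure what the library kept and not the amount of rRNA in the cell.

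Nuclear RNAs that lack a poly(A) tail were set beside the rRNAs. Over 68 replication-dependent histone genes and small structural RNAs the summed level was 816 and 572 TPM in K97E libraries, against 640.1 and 839 TPM in WT libraries, so the sum was lowest in K97E replicate 2. Gene by gene, K97E replicate 2 was the lowest library for 19 of the 64 tested and WT replicate 1 for 37. H1f2, a linker histone and the most abundant of them, chosen after its values were seen, had 246 and 157 TPM in K97E libraries, against 172 and 253 TPM in WT libraries. Of the 64 tested, 0 were called in either direction, and their median log2 difference was −0.07 against 0.00 over all genes. At an unadjusted p under 0.05 there were 2 higher and 1 lower. The histone genes H2ac22 (0.41), H2ac14 (0.34), H2ac8 (−0.38) and H4c14 (−0.41) had the smallest p on their sides among those averaging 1 TPM or more. The part of this in the rRNA values was not tested.

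**Figure D3:**
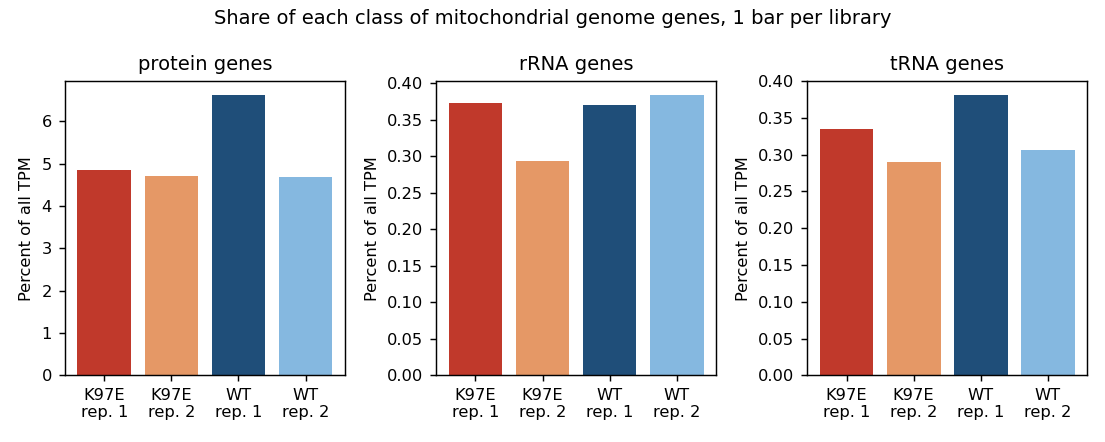
Share of all TPM held by the protein, rRNA and tRNA genes of the mitochondrial genome, 1 bar per library, each panel with its own axis from 0. The protein share is highest in WT replicate 1 (6.62%), the rRNA share is lowest in K97E replicate 2 (0.293%), and the tRNA share is highest in WT replicate 1 (0.381%) and lowest in K97E replicate 2 (0.290%).

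As shares of the library, protein genes made up 4.84% and 4.71% of all TPM in K97E libraries, against 6.62% and 4.68% in WT libraries. rRNA genes made up 0.373% and 0.293% in K97E libraries, against 0.371% and 0.384% in WT libraries. tRNA genes made up 0.335% and 0.290% in K97E libraries, against 0.381% and 0.306% in WT libraries. Each class averaged lower in K97E, and each difference was within the spread of the libraries. The 4 libraries can be put into 2 groups of 2 in 3 ways, so an exact two-sided permutation test cannot go below 0.333. The exact p was 1.0 for the protein share (difference −0.871 percentage points), since both other pairings gave a gap at least as large. It was 0.667 for the rRNA share (difference −0.044) and 0.667 for the tRNA share (difference −0.031). The log2 ratio of rRNA to protein genes was −3.70 and −4.01 in K97E libraries, against −4.16 and −3.61 in WT libraries, with an exact p of 1.0. Within each group this ratio differed more between its libraries than between the group means. Benjamini-Hochberg adjustment over the 11 shares and ratios tested makes every p 1.0.

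tRNAs of 59 to 75 bases are shorter than a single 100-base read, and all 22 were in the files. A full 100-base read that covers one runs past its ends, so it holds sequence of unprocessed precursor or of a neighbouring RNA. These sources cannot be told apart, and the values are not a measure of mature tRNA. Levels ran from 4.33 TPM for mt-Tr (arginine) to 1118 TPM for mt-Ts1 (serine) as means over the 4 libraries. The estimated reads behind them ran from 11 to 3927 per gene and library. Set against the coverage of the flanking genes, the 14 tRNAs on the plus strand had a median of 0.68%, with 9 under 1%. The 8 on the minus strand had a median of 2.30%, with 1 under 1%. With no strand option set, reads of a minus-strand tRNA and of plus-strand RNA over the same bases may not have been told apart. This limit holds for every minus-strand tRNA value below.

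**Figure D4:**
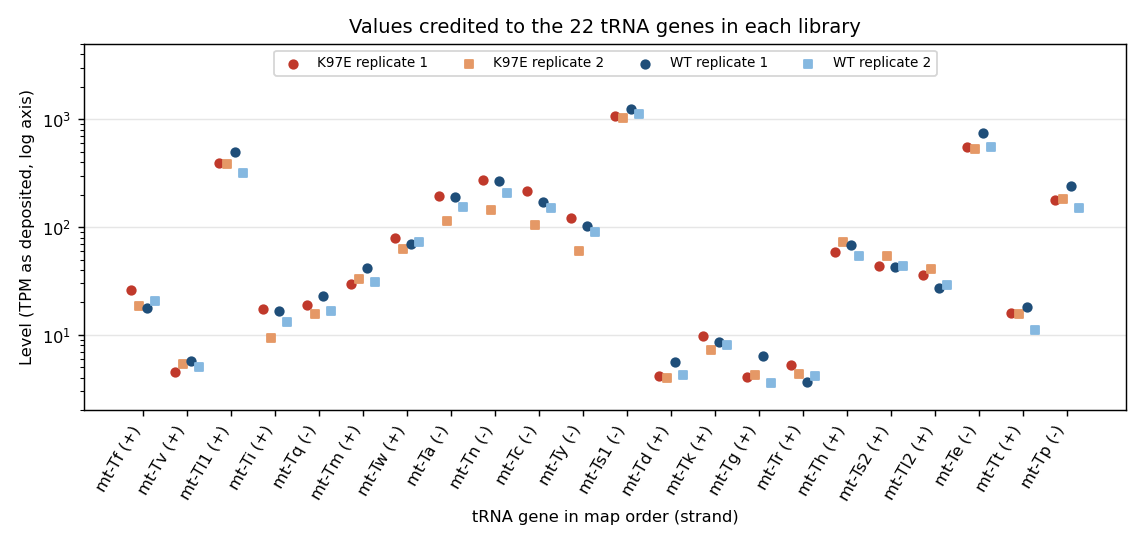
TPM credited to each of the 22 tRNA genes in map order with its strand (log axis), 1 point per library. mt-Ts1, mt-Te and mt-Tl1 are the highest, and K97E replicate 2 lies lowest for the neighbouring minus-strand genes mt-Ta, mt-Tn, mt-Tc and mt-Ty.

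The values credited to some tRNA genes stood well above the rest. mt-Ts1 had 1078 and 1034 TPM in K97E libraries, against 1237 and 1122 TPM in WT libraries, and shares its last 3 bases with mt-Co1 on the other strand. Its level was 0.079 and 0.078 times that of mt-Co1 in K97E libraries and 0.073 and 0.08 times in WT libraries. mt-Te, for glutamate, had 549 and 528 TPM in K97E libraries, against 748 and 556 TPM in WT libraries. mt-Tl1, a leucine tRNA between mt-Rnr2 and mt-Nd1, had 390.0 and 383 TPM in K97E libraries, against 503 and 317 TPM in WT libraries. Both mt-Ts1 and mt-Te are minus-strand genes, and mt-Te abuts mt-Nd6. For both, the K97E libraries lay below both WT libraries, with log2 differences of −0.22 and −0.32 (limma adjusted p = 0.965). Against the flanking coverage mt-Te reached 17.8%, mt-Tl1 17.3% and mt-Ts1 11.7%, and mt-Td, for aspartate, only 0.047%. The 7 tRNAs the comparison turns on are printed in full, with the anticodon, found as the middle of a 7-base loop closed by a 5-pair stem, in capitals.
mt-Ts1: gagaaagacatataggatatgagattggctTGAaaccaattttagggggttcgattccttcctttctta
mt-Te: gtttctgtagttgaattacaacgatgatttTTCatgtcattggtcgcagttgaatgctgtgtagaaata
mt-Ta: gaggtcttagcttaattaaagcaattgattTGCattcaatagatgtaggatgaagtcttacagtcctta
mt-Tn: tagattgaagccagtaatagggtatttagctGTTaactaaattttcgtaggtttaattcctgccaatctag
mt-Tc: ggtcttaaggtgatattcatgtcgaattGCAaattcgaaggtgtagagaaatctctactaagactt
mt-Ty: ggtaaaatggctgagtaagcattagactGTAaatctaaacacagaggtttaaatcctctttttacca
mt-Tl2: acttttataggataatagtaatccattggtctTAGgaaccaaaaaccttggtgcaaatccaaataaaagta

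mt-Ta, mt-Tn, mt-Tc and mt-Ty, for alanine, asparagine, cysteine and tyrosine, form a run on the minus strand between mt-Nd2 and mt-Co1 (chrMT:5018-5326). mt-Tn had 273 and 145 TPM in K97E libraries, against 265 and 205 TPM in WT libraries. mt-Tc had 215 and 106 TPM in K97E libraries, against 171 and 152 TPM in WT libraries. mt-Ta had 193 and 114 TPM in K97E libraries, against 189.9 and 153 TPM in WT libraries. In all 3 genes, and in mt-Ty with 120.4 and 60.4 TPM in K97E and 103 and 89.5 TPM in WT libraries, K97E replicate 1 was the highest library and K97E replicate 2 the lowest. The K97E replicates differed up to 2.03 times, for mt-Tc. The log2 ratio of the run to the protein genes was −5.92 and −6.79 in K97E libraries, against −6.50 and −6.29 in WT libraries (difference 0.04, exact permutation p = 1.0). Of the 8 minus-strand tRNAs all had negative differences, with a median of −0.23, and K97E replicate 2 was the lowest library for 7. Without K97E replicate 2 the differences of mt-Ta, mt-Tn, mt-Tc and mt-Ty were 0.09, 0.13, 0.32 and 0.23.

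mt-Tl2, the leucine tRNA before mt-Nd5 (chrMT:11671-11741, plus strand), was the member with the smallest unadjusted p. It had 36.0 and 40.8 TPM in K97E libraries, against 27.1 and 28.8 TPM in WT libraries. The groups did not overlap, with a log2 difference of 0.39 ± 0.12 (SE), an unadjusted p of 0.0165 and a limma adjusted p of 0.965. It is therefore not called. The neighbouring mt-Th (histidine) had 58.4 and 73.0 TPM in K97E libraries and 68.5 and 54.0 TPM in WT libraries, and mt-Ts2 (serine) had 43.7 and 54.4 TPM and 43.0 and 43.6 TPM. K97E replicate 2 was the highest library for all 3 of these adjacent genes, the only members of the 37 where it was. mt-Tr, at 5.26 and 4.29 TPM in K97E libraries and 3.67 and 4.13 TPM in WT libraries, was the other member with both K97E libraries above both WT libraries. Its values rest on an estimated 19 and 15 reads in K97E libraries and 11 and 14 in WT libraries. Over the 22 tRNAs, 16 differences were negative and 6 positive, with a median of −0.17 and limma adjusted p of 0.965 to 0.991.

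The other 11 tRNAs had differences from −0.30 for mt-Td to 0.13 for mt-Tf (phenylalanine). mt-Td had 4.11 and 3.98 TPM in K97E libraries, against 5.61 and 4.24 TPM in WT libraries, and its groups did not overlap. Only an estimated 15 and 14 reads in K97E libraries and 17 and 15 in WT libraries lie behind this. mt-Ti, for isoleucine, had 17.5 and 9.29 TPM in K97E libraries, against 16.5 and 13.2 TPM in WT libraries, with K97E replicate 2 the lowest. mt-Tp, for proline, had 177 and 184 TPM in K97E libraries, against 239.7 and 149.9 TPM in WT libraries, the same order of WT libraries as the protein genes. The remaining mt-Tf, mt-Tv, mt-Tq, mt-Tm, mt-Tw, mt-Tk, mt-Tg and mt-Tt averaged between 4.56 and 71.0 TPM over the 4 libraries.

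**Figure D5:**
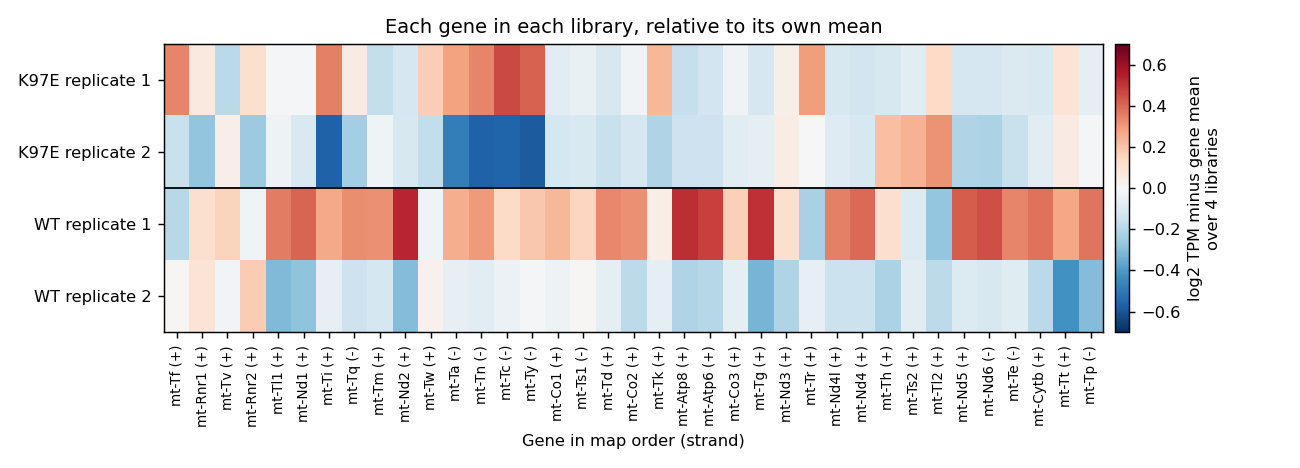
Log2 TPM of each of the 37 genes minus that gene's mean over the 4 libraries (colour), with genes in map order and their strand across and libraries down. WT replicate 1 is above the gene mean for all protein genes, and K97E replicate 2 is below it for both rRNAs and for the run from mt-Ta to mt-Ty.

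Nuclear genes that make, process and translate these RNAs were set beside the members. Among 29 genes of mitochondrial DNA transcription and maintenance 0 were called, 14 differences were negative and 15 positive, and the median was 0.01. Tfam, which packages the mitochondrial genome and starts its transcription, had 20.5 and 20.025 TPM in K97E libraries, against 20.1 and 19.8 TPM in WT libraries. Polrmt, the mitochondrial RNA polymerase, had 19.6 and 17.4 TPM in K97E libraries, against 16.999 and 16.2 TPM in WT libraries. The 2 with the smallest p on each side were Mpv17 (0.18), an inner membrane protein needed to keep mitochondrial DNA, and Slc25a33 (0.22), a carrier of pyrimidine nucleotides, against Ssbp1 (−0.17), which binds single-stranded mitochondrial DNA, and Rnaseh1 (−0.15), which removes RNA from hybrids with DNA, as log2 differences.

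Among 46 genes of mitochondrial RNA processing and stability 0 were called, 16 differences were negative and 30 positive, with a median of 0.04. Fastkd2, an RNA-binding protein needed for assembly of the large mitochondrial ribosomal subunit, had 13.9 TPM in both K97E libraries and 10.3 TPM in both WT libraries. Its log2 difference was 0.36 ± 0.10 (SE), with an unadjusted p of 0.0139 and a limma adjusted p of 0.965. Pnpt1, the polynucleotide phosphorylase that degrades mitochondrial RNA, had 144 and 156 TPM in K97E libraries, against 183 and 160.15 TPM in WT libraries. Mettl15 (0.29) and Trit1 (−0.17), which modify mitochondrial rRNA and tRNA, were the others named by smallest p. Lrpprc, which holds and stabilises mitochondrial messengers, had 42.1 and 44.7 TPM in K97E libraries, against 40.7 and 38.5 TPM in WT libraries. Elac2, which cuts the 3′ end of tRNAs out of the precursor, had 23.9 and 24.8 TPM in K97E libraries, against 23.7 and 21.2 TPM in WT libraries.

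Among 86 genes of the mitochondrial ribosome and its translation factors 0 were called, 41 were negative and 45 positive, with a median of 0.01. Their summed level was 4115 and 4115 TPM in K97E libraries, against 4031 and 3877 TPM in WT libraries. Mrps28 (0.25) and Mrps16 (0.26), with Mrpl32 (−0.40) and Mrps33 (−0.19), all ribosomal proteins, had the smallest p on their sides. Among 22 genes of mitochondrial tRNA charging 0 were called, 3 were negative and 19 positive, with a median of 0.10. These are aminoacyl-tRNA synthetases, together with Qrsl1, Gatb and Gatc, which are not synthetases. Vars2 (0.22), Sars2 (0.19), Gars (−0.09) and Kars (−0.04), for valine, serine, glycine and lysine, had the smallest p on their sides. Their summed level, 930.3 and 1403 TPM in K97E libraries against 899 and 1372 TPM in WT libraries, followed Lars2, the leucyl-tRNA synthetase, chosen here after its values were seen. Lars2 had 281 and 710.15 TPM in K97E libraries, against 237 and 740.2 TPM in WT libraries, so the replicates differed within both groups.

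Among 33 genes that insert and assemble the mitochondrially encoded subunits 0 were called, 14 were negative and 19 positive, with a median of 0.01. Cox11 (0.31), Coa3 (0.21) and Cox20 (−0.33), all assembly factors of cytochrome c oxidase, had the smallest p on their sides together with Cox17. Cox17, which delivers copper to that complex, had 71.9 and 70.5 TPM in K97E libraries, against 81.9 and 79.7 TPM in WT libraries. Its log2 difference was −0.24 ± 0.08 (SE), with an unadjusted p of 0.0310 and a limma adjusted p of 0.965. The limma adjusted p was 0.965 or more for every gene named from these lists. Those with an unadjusted p under 0.05 were 0 genes of transcription and maintenance, 0 of tRNA charging and 1 of RNA processing (higher). There were also 3 of the ribosome and translation (2 higher, 1 lower) and 2 of insertion and assembly (1 higher, 1 lower).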

How the data were processed

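RNA-seq of 2 K97E and 2 WT lamin A transfections was analysed from 1 transcript file per library. StringTie 2.1.7, HISAT2, FastQC, SAMtools and DESeq2, with build GRCm39, are named in the submitters' processing notes without their roles, and DESeq2 was not run here. StringTie, per the file headers, estimated annotated transcripts only (Ensembl release 104), and no strand option was set. The deposited files give coverage, FPKM and TPM per transcript for 142434 transcripts, and the authors' TPM sums to 1000000 per library. Estimated reads are deposited coverage times length over 100 bases, 89600000 to 115600000 per library.

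Gene values are TPM summed over transcripts. After division by median-of-ratios factors (from genes above 1 TPM in all libraries), 0.5 was added, and log2 values of genes averaging at least 0.5 TPM were fitted with limma 3.58.1 in R 4.3.3 (trend, two-sided, Benjamini-Hochberg, threshold 0.05). Fold changes are K97E minus WT on that log2(TPM + 0.5) scale. Shares and ratios used exact permutation tests. Copies were aligned with Biopython 1.88 and BLAST 2.17.0. On simulated data for 16305 genes, 43 of 100 genes changed by 1 and 90 of 100 changed by 2 on the log2 scale were called, with 3 false calls. Noise was drawn independently for each gene, while members differed by only −0.40 to 0.39 and can move together. The simulation therefore gives no rate of calls for members. The members, the gene lists and the tests were chosen with earlier results of these data known. Named nuclear genes are those called, otherwise the 2 with the smallest p on each side at 1 TPM or more. Tfam, Polrmt, Lrpprc and Elac2 were added for their role. Rn7sk, Rn7s1 and Rn7s2 were not matched by name. Alternatives were other pseudocounts (0.1 and 1), filters, scalings, FPKM, eBayes settings, voom weights, the replicate number as a block, other denominators, and each library left out.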

Additional observations from a re-analysis of the deposited data

How the results depend on the processing

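No member was called under any of the 18 alternatives, and the median difference of the members tested stayed negative in each. With a filter of a mean of 5 TPM, 34 members were tested, and otherwise all 37. Of the 37 genes, 16 kept their sign throughout, 20 changed it at least once, and mt-Co1 stood at 0.0 under quantile normalization. Gene calls over the whole table, 1 as reported, were 0 without a filter, 2 with TPM as deposited, 3 with TPM rescaled to genes outside the mitochondrial genome, 2 with eBayes without trend and 4 with voom weights, and 18 without WT replicate 1, 6 without WT replicate 2 and 0 without either K97E replicate. Without WT replicate 2, 18 members had an unadjusted p under 0.05 and the smallest limma adjusted p of a member was 0.279. A lone library left in a group was assumed to vary like the other group. Over the tested genes, same-numbered libraries did not deviate together (correlation −0.137), though Lars2 was lower in replicate 1 of both groups. Whether same-numbered libraries were handled together is not given, and 1 correlation cannot show it. The replicate block called 0 genes, and a crossed replicate block, chosen after seeing the data, called 30. With a library left out, the difference in share ran from −1.84 to 0.0956 percentage points for protein genes and −0.0686 to 0.00659 for tRNA genes, positive in both without WT replicate 1, and the log2 ratio of rRNA to protein ran from −0.24 to 0.30, negative without WT replicate 1 or K97E replicate 1. With TPM as deposited mt-Tk had a difference of 0.022 and with the rescaling 0.0077, and quantile normalization gave mt-Co3 0.0031, each against a negative value as reported. The differences of 19 genes changed sign with a library left out, in these ranges of log2 differences: mt-Tl1 −0.44 to 0.22, mt-Nd1 −0.53 to 0.16, mt-Nd2 −0.70 to 0.13, mt-Co2 −0.45 to 0.051, mt-Tk −0.21 to 0.14, mt-Tg −0.60 to 0.15, mt-Cytb −0.53 to 0.031, mt-Tp −0.47 to 0.20, mt-Nd3 −0.13 to 0.19, mt-Th −0.15 to 0.24, mt-Tt −0.25 to 0.42, mt-Tf −0.086 to 0.34, mt-Ti −0.67 to 0.15, mt-Tw −0.20 to 0.081, mt-Ta −0.61 to 0.0897, mt-Tn −0.71 to 0.13, mt-Tc −0.63 to 0.32, mt-Ty −0.69 to 0.23 and mt-Ts2 −0.079 to 0.30. Some turned in more than 1 such fit: 8 turned without WT replicate 1, 10 without K97E replicate 2, 3 without WT replicate 2 and 1 without K97E replicate 1. No cause was tested. Depth is known only as an estimate from coverage, and 2 libraries a group limit what the test can call.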

Other observations

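3 small structural RNAs of the nucleus and cytosol, chosen after their values were seen, were high in 1 library. Rmrp, the RNA of RNase MRP, had 3.92 and 5.05 TPM in K97E libraries, against 1.40 and 32.2 TPM in WT libraries. Rpph1, the RNA of nuclear RNase P, had 0.719 and 0.744 TPM in K97E libraries, against 0.567 and 14.1 TPM in WT libraries. Rn7s6 had 1.26 and 0.983 TPM in K97E libraries, against 0.835 and 10.4 TPM in WT libraries. WT replicate 2 was the high library for all 3.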
